A study of Mus musculus with 6 samples.

Results

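Solute carrier (SLC) genes were examined in Morc3 knock-out (ko) and wild-type mouse embryonic stem (ES) cells, pluripotent cells of the early embryo grown in culture. Genes were chosen by name and by their count over all libraries, with no rule on the difference between the groups. A gene was taken if its symbol was Slc, a family number, the letter a and a member number, and if its sense-strand counts summed to at least 100 over the 6 RNA-seq libraries. Of 24054 gene rows, 331 had such a symbol and 172 of these reached the minimum. The other 159 did not, among them 46 with no count. A gene high in only 1 group could reach the minimum through that group, as Slc23a1 did with 261 counts in ko and 22 in wild type. Just outside were Slc7a2 and Slc39a8 with 96 counts each and Slc12a5 and Slc37a2 with 95 each, and just inside were Slc24a1 with 101, Slc25a23 with 105 and Slc5a5 with 108. The 172 genes were grouped by the known substrate of their family, with some genes placed singly. There were 33 genes of the Slc25 family, counted as mitochondrial carriers, and 31 amino acid, 25 ion and 23 metal transporters. A further 10 were nucleoside or nucleotide sugar, 6 glucose or hexose, 5 monocarboxylate, 2 vitamin C and 6 other vitamin transporters. The last 31 had other substrates.

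Morc3, an ATPase of the MORC family, was studied for its role in silencing endogenous retroviruses. Total RNA was sequenced from 3 Morc3 ko lines and 3 wild-type samples, all grown without feeder cells in medium with serum and LIF. Each ko line was a single clone derived with Cas9 from the wild-type line wt26. The ko libraries are called clones 1, 2 and 3 and the wild-type libraries p42, p43 and p56, after the labels, which do not say what p stands for or whether the wild-type samples were grown separately, so that p-values measure only the spread between these samples. Values of single libraries are given in this order throughout.

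SLC proteins are membrane carriers that move nutrients, metabolites and ions across the plasma membrane or the membranes of organelles, by facilitated diffusion or coupled to ion gradients. Members of the Slc25 family sit mostly in the inner mitochondrial membrane and connect the metabolism of matrix and cytosol. ES cells grow fast and take up much glucose and amino acids, and vitamin C is a cofactor of the dioxygenases that demethylate DNA and histones.

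Sense-strand gene counts amounted to 10740618 to 11525164 in the ko and to 13013286 to 14123131 in the wild-type libraries. Morc3 itself reached 77.8, 137.9 and 134.6 CPM (counts divided by the scaled total of the library) in ko and 276.8, 272.0 and 302.2 CPM in wild type, a log2 fold change of -1.28 (SE 0.16, adjusted p = 0.000843 by edgeR, 0.0184 by its robust fit). The 9 pluripotency markers summed to 6113 to 6218 CPM in ko and 5588 to 5721 CPM in wild type. Of these, 0 were called by edgeR and 1, Dppa5a, by DESeq2 (log2 0.43, adjusted p = 0.0231 by edgeR). At an unadjusted p under 0.05, 2 were higher, against 6.42% of all genes tested. Of 7 fibroblast markers, 2 were tested and 1, Thy1, fell in ko (log2 -0.86, adjusted p = 0.0064 by edgeR, at most 0.0584 over all fits). Among all genes tested, 0.417% were called lower. The fibroblast list summed to 7.15 to 8.32 CPM in ko and 11.8 to 12.7 CPM in wild type, and Dcn was at 0. Primitive endoderm markers summed to 1.27 to 1.59 CPM in ko and 1.93 to 2.73 CPM in wild type, and neural and mesodermal markers to 4.50 to 5.73 CPM and 5.25 to 6.23 CPM. The part of these cells in the results was not tested. In bulk RNA, fewer cells of a type and less RNA per cell cannot be told apart.

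To determine which transporters ES cells express most, levels were divided by the length of each gene's exons, as CPM per kb averaged over all libraries. The highest level was that of Slc25a5 with 392 CPM per kb, followed by its relative Slc25a4 with 159, Slc2a3 with 105, Slc16a1 with 87.4 and Slc7a3 with 81.3. Both leading genes encode adenine nucleotide translocators, which exchange ADP for ATP across the inner mitochondrial membrane, and the next are a glucose, a lactate and a cationic amino acid transporter. Slc7a5, Slc3a2, Slc2a1, Slc38a4 and Slc20a1 completed the top 10, between 78.0 and 67.2 CPM per kb. These 10 genes made up between 50.3% and 51.8% of the summed level per kb of all 172 in every library. At the other end stood Slc4a4 with 0.156 and Slc7a11 with 0.129 CPM per kb, so that the levels spanned more than 3 orders of magnitude. As a share of all sense counts, the 172 genes took 0.964%, 0.914% and 0.927% in the ko clones and 0.991%, 0.978% and 0.987% in wild type, with all ko values below all wild-type values.

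**Figure D1:**
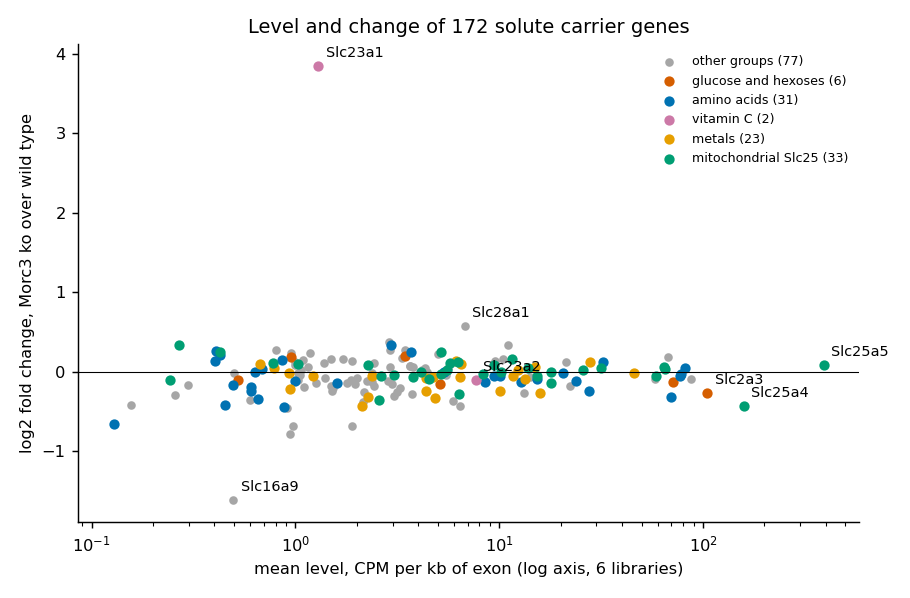
Log2 fold change of ko over wild type (vertical axis) against the mean level in CPM per kb on a log axis (horizontal axis), 1 point for each of the 172 SLC genes. Slc23a1 stands at 3.85 at a level of 1.30 CPM per kb, and the 10 genes with the highest levels lie between -0.43 and 0.19.

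Next, each transporter was compared between ko and wild type. All 172 genes passed the filter on low counts, and 1 of them, Slc23a1, was called at an adjusted p under 0.01 by edgeR's quasi-likelihood test. Among all 12222 genes tested, 156 were called, which is 1.28%, with 0.859% higher and 0.417% lower in ko. At an adjusted p under 0.05, 4 SLC genes passed, Slc23a1 and Slc28a1 being higher and Slc25a4 and Slc16a9 lower in ko. The background was 2.71% of all genes tested, 1.58% higher and 1.13% lower. At an unadjusted p under 0.05, 9 SLC genes were higher and 20 lower in ko, against 6.42% higher and 7.86% lower among all genes tested. These shares are the background for every count at this p-value. The ko and wild-type libraries did not overlap for 39 of the 172 genes, 13 higher and 26 lower in ko, where 19.9% of all genes tested did not overlap (9.67% higher and 10.2% lower). Fold changes were small in most cases. The 95% interval of the fold change lay within 1.5-fold in either direction for 121 genes (70.3%), compared with 73.1% of all genes tested, and a fitted change beyond 1.5-fold was found for 6 genes (3.49%), compared with 5.24%. The median log2 fold change was -0.0466, with 70 genes above and 102 below 0, while the median of all genes was -0.000103. Without single libraries this median ranged from -0.0691 to -0.0245.

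The gene that stood out was Slc23a1, which encodes a sodium-dependent vitamin C transporter (SVCT1) known from epithelia of kidney and intestine. It reached 9.06, 8.03 and 6.53 CPM in ko and 0.579, 0.560 and 0.463 CPM in wild type. Every ko clone was far above every wild-type library. The mean was 7.87 ± 1.27 CPM in ko and 0.534 ± 0.0622 CPM in wild type (SD, n = 3 each), with a log2 fold change of 3.85 (SE 0.25, 95% interval 3.31 to 4.39, adjusted p = 3.15e-06 by edgeR). These values rest on 98, 91 and 72 counts in ko and on 8, 8 and 6 counts in wild type. The gene reached the count minimum only through the ko libraries, so its place among the 172 was not independent of this difference. The summed counts of 261 and 22, scaled to library totals, gave a ratio of 14.4 with a 95% interval of 9.34 to 23.5 (Clopper-Pearson), which covers counting error only. Averaged over all libraries, ko and wild type together, it ranked at place 124 of the 172 with 1.30 CPM per kb. A rank in ko alone was not computed.

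The other vitamin C transporter, Slc23a2 (SVCT2), which most cell types use, was the more abundant one. It reached 59.6, 61.3 and 56.5 CPM in ko and 64.1, 63.5 and 62.8 CPM in wild type. The ko values lay slightly below all wild-type values, but the difference did not pass the test, with a log2 fold change of -0.10 (95% interval -0.25 to 0.05, adjusted p = 0.562 by edgeR). Per kb, the level of Slc23a1 relative to that of Slc23a2 was 0.373, 0.322 and 0.284 in ko and 0.0222, 0.0217 and 0.0181 in wild type. Summed over both genes, vitamin C transporter counts came to 68.6, 69.3 and 63.0 CPM in ko and 64.7, 64.1 and 63.2 CPM in wild type, and these sums overlapped. Among 11 genes of vitamin C synthesis and use, such as Tet dioxygenases, 0 were called by edgeR, DESeq2 or limma-voom. At an unadjusted p under 0.05, 4 were higher and 1 was lower (background 6.42% and 7.86%). The higher genes were Gulo (log2 0.47), Plod2 (0.30), Kdm3a (0.25) and Kdm4c (0.22), and the lower gene was Plod1 (-0.32). The median log2 fold change of all 11 genes was -0.0223.

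Slc23a1 lies at chr18:35604224-35629845 (GRCm38, the assembly of mm10) on the minus strand and shares 12963 bases with Paip2, which runs on the plus strand. Strand was therefore checked. On the strand opposite to Slc23a1, 10, 7 and 15 counts were found in ko and 13, 15 and 10 in wild type, a ratio of 1.03 (95% counting interval 0.62 to 1.69). Ignoring strand, 293 and 58 counts gave a ratio of 6.15 (4.63 to 8.30). Paip2 itself, a regulator of translation, had a log2 fold change of 0.08 (adjusted p = 0.632 by edgeR). The higher count of Slc23a1 in ko was found on its own strand.

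Whether genes nearby moved as well was tested for the 11 annotated genes within 100 kb of Slc23a1. Of these, 10 were tested and 0 were called by edgeR at an adjusted p under 0.01. DESeq2 called 1, Prob1 (adjusted p = 0.00311), and 2 were higher at an unadjusted p under 0.05 (background 6.42%). The nearest to the threshold was Prob1, a proline-rich protein gene on the same strand, whose start is 25.4 kb away and which was singled out after its values were seen. It had 22, 26 and 32 counts in ko and 3, 10 and 10 counts in wild type, with a log2 fold change of 2.08 (SE 0.38, adjusted p = 0.0110 by edgeR). Its ko values were all above its wild-type values, and it passed the threshold in 5 of 15 fits, with adjusted p-values from 0.000798 to 0.0890. Fitted changes of the other genes were smaller, for instance 0.48 for Spata24 (adjusted p = 0.365) and 0.05 for Matr3 (adjusted p = 0.759), which encodes a nuclear matrix protein. Without p56, Prob1 and the small nucleolar RNA gene Snora74a were called (log2 0.64, adjusted p = 8.83e-07 for Snora74a by edgeR, against 0.43 and 0.126 with all libraries).

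**Figure D2:**
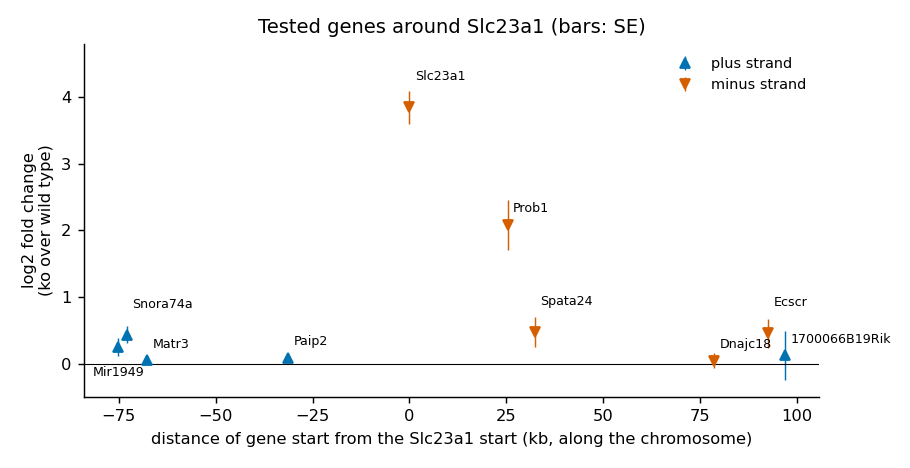
Log2 fold change of ko over wild type (vertical axis, bars are SE) for Slc23a1 and 9 tested genes around it, against the distance of their starts from the start of Slc23a1 in kb (horizontal axis). Slc23a1 at 3.85 and Prob1 at 2.08 stand above the other genes. Snhg4, also tested (0.15), is not shown because it had no strand in the annotation.

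Glucose transporters were led by Slc2a3 (GLUT3), a high-affinity carrier, and Slc2a1 (GLUT1), the carrier of most dividing cells. Slc2a3 reached 793.8, 644.3 and 631.9 CPM in ko and 861.0, 836.3 and 795.4 CPM in wild type. Clone 1 was nearly level with wild-type p56, while clones 2 and 3 were clearly below. The log2 fold change was -0.27 (SE 0.08, 95% interval -0.45 to -0.09) and did not pass the test (adjusted p = 0.140 by edgeR, between 0.0118 and 0.513 over all fits). Slc2a1 had 266.5, 224.5 and 222.1 CPM in ko and 269.9, 258.4 and 250.1 CPM in wild type, with clones 2 and 3 again lowest and clone 1 inside the wild-type range (log2 -0.13, 95% interval -0.29 to 0.04, adjusted p = 0.511). Slc2a3 relative to Slc2a1, both per kb, came to 1.44, 1.39 and 1.38 in ko and 1.54, 1.57 and 1.54 in wild type. The remaining members were much lower. Slc50a1, a sugar transporter of the SWEET family, had 5.10 CPM per kb and a log2 fold change of -0.15 (adjusted p = 0.760). Together, the 6 glucose and hexose transporters summed to 951.9 ± 119 CPM in ko and 1113 ± 44.7 CPM in wild type (SD, n = 3 each), and 0 of them were called by edgeR, DESeq2 or limma-voom, with 1 lower at an unadjusted p under 0.05. Of 17 other genes of glucose use, such as glycolytic enzymes, 0 were called by these tools and 1 was higher and 2 were lower at an unadjusted p under 0.05, with a median log2 fold change of 0.0404.

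Lactate is exported by monocarboxylate transporters, among which Slc16a1 (MCT1) prevailed with 359.3, 379.3 and 385.6 CPM in ko and 402.0, 395.4 and 399.1 CPM in wild type. Its groups did not overlap, but the log2 fold change was only -0.09 (SE 0.06, adjusted p = 0.529 by edgeR). Slc16a3 (MCT4), the carrier of strongly glycolytic cells, had a log2 fold change of 0.14 (95% interval -0.20 to 0.48, adjusted p = 0.754). A larger change was measured for Slc16a9 (MCT9), which was grouped here by its family and not as a known lactate exporter. Its level was low, with 1.29, 0.441 and 1.09 CPM in ko and 2.17, 2.45 and 4.09 CPM in wild type. All ko values were below all wild-type values, and p56 was the highest. The log2 fold change of -1.62 (SE 0.38, 95% interval -2.45 to -0.78) passed an adjusted p of 0.05 but not of 0.01 (adjusted p = 0.0454 by edgeR). Of the other fits, only edgeR without the filter on low counts called Slc16a9 (adjusted p = 0.00745). The log2 fold change was -1.30 without p56 (adjusted p = 0.0309 by edgeR) and -1.27 without clone 2 (adjusted p = 0.239).

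**Figure D3:**
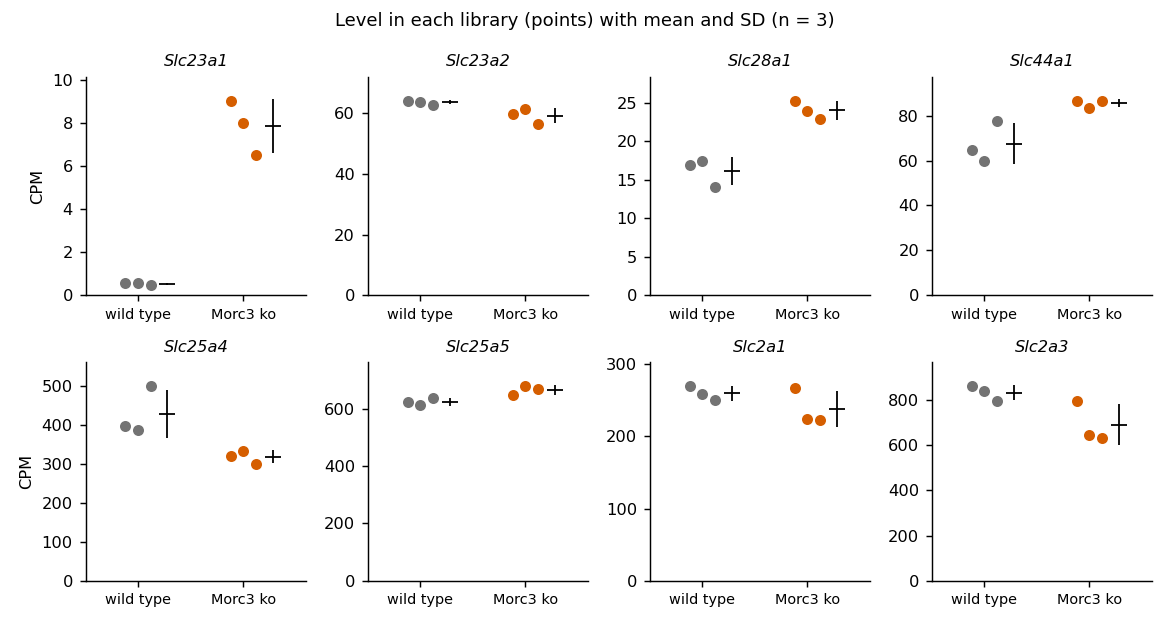
CPM of 8 SLC genes in each of the 6 libraries, 1 panel per gene with its own vertical axis, ko clones and wild-type libraries as points beside the mean and SD (n = 3). Of the 8 genes, Slc23a1 has the widest gap relative to its level, from 6.53 CPM in the lowest ko clone to 0.579 CPM in the highest wild-type library, whereas p56 stands apart from p42 and p43 in Slc25a4 with 501.4 CPM.

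The most abundant amino acid transporters differed little between the groups. Slc7a3 (CAT3), which carries arginine and lysine, reached 290.6, 320.5 and 327.9 CPM in ko and 297.9, 296.6 and 313.2 CPM in wild type (log2 0.05, adjusted p = 0.797 by edgeR). Slc7a5 and Slc3a2 encode the light and heavy chain of the leucine transporter LAT1. Slc7a5 had 310.3, 264.0 and 283.4 CPM in ko and 299.7, 310.3 and 266.8 CPM in wild type, and for both chains the groups overlapped. The 95% interval of the log2 fold change was -0.20 to 0.14 for Slc7a5 and -0.24 to 0.12 for Slc3a2. Per kb, the ratio of light to heavy chain stayed close to 1 in each library, with 1.07, 0.99 and 1.01 in ko and 1.03, 0.96 and 1.04 in wild type. Slc1a5 (ASCT2), a carrier of glutamine and other neutral amino acids, had a log2 fold change of -0.11 (adjusted p = 0.731), and Slc7a1 (CAT1) one of -0.12 (adjusted p = 0.582).

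The amino acid transporters with the smallest p-values were Slc38a4 and Slc6a15. Slc38a4 (SNAT4), an imprinted gene whose product takes up neutral and cationic amino acids, reached 272.0, 255.2 and 260.5 CPM in ko and 307.9, 303.2 and 372.0 CPM in wild type. Slc6a15, a carrier of branched-chain amino acids and proline, reached 25.04, 25.16 and 25.95 CPM in ko and 19.41, 20.58 and 20.15 CPM in wild type. Neither gene's groups overlapped, and neither passed the threshold, with log2 fold changes of -0.32 (SE 0.08, adjusted p = 0.0590) and 0.34 (SE 0.09, adjusted p = 0.0709) by edgeR. Per kb of exon, the cystine transporter gene Slc7a11 was the lowest of the 172. It had 1.48, 1.06 and 1.63 CPM in ko and 2.25, 2.17 and 2.16 CPM in wild type. Its log2 fold change was -0.66 (95% interval -1.22 to -0.09, adjusted p = 0.264), and 98 counts lay on the opposite strand against 136 on the sense strand. Of all 31 amino acid transporters, 0 were called by edgeR, DESeq2 or limma-voom, 1 was higher and 3 were lower at an unadjusted p under 0.05 (background 6.42% and 7.86%), and for 21 the 95% interval stayed within 1.5-fold. Their summed level was 2313 ± 67.4 CPM in ko and 2400 ± 60.5 CPM in wild type (SD, n = 3 each). Of 14 genes of the amino acid response, 0 were called by these tools and 1 was lower at an unadjusted p under 0.05, with a median log2 fold change of -0.00114.

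Among 23 metal transporters 0 were called by edgeR, DESeq2 or limma-voom, with 0 higher and 3 lower at an unadjusted p under 0.05 (background 6.42% and 7.86%). The most abundant per kb of exon was Slc39a7 (ZIP7), which releases zinc from the endoplasmic reticulum, with 45.8 CPM per kb. It reached 113.9, 126.0 and 113.7 CPM in ko and 119.6, 124.3 and 111.9 CPM in wild type (log2 -0.01, 95% interval -0.16 to 0.14). Slc39a10 (ZIP10), a zinc importer, followed with a log2 fold change of 0.13 (adjusted p = 0.451). Slc30a1 (ZnT1), the zinc exporter of the plasma membrane, and Slc11a2 (DMT1), which imports iron, had values of 0.06 (adjusted p = 0.835) and -0.06 (adjusted p = 0.793). The iron exporter gene Slc40a1 had 84 counts in all and was below the minimum. The zinc transporter gene Slc30a4 had the smallest p, with 10.6, 9.80 and 9.35 CPM in ko and 12.8, 12.2 and 15.1 CPM in wild type (log2 -0.43, SE 0.13, adjusted p = 0.126). Slc39a14 (ZIP14), which imports zinc, iron and manganese, reached 152.6, 151.5 and 149.3 CPM in ko and 164.2, 167.3 and 214.0 CPM in wild type. Here the ko clones were nearly equal and p56 was the high library, and the log2 fold change of -0.27 (adjusted p = 0.197) became -0.13 (adjusted p = 0.240) without p56. In a list of 12 genes of metal handling, 1, the metal-binding Mt2, rose in ko, from 137.5, 124.6 and 114.0 CPM in wild type to 184.8, 174.7 and 179.4 CPM (log2 0.52, SE 0.07, adjusted p = 0.0022 by edgeR, at most 0.0234 over all fits). Among all genes tested, 0.859% were called higher. At an unadjusted p under 0.05, 3 genes of this list were higher, Mt2 included, and 1 was lower (background 6.42% and 7.86%).

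Mitochondrial carriers formed the largest group, and 0 of 33 were called by edgeR at an adjusted p under 0.01. At an unadjusted p under 0.05, 1 was higher and 3 were lower (background 6.42% and 7.86%). Slc25a5 (ANT2), the translocator of proliferating cells, reached 646.9, 679.9 and 669.0 CPM in ko and 624.3, 611.6 and 639.3 CPM in wild type. Slc25a4 (ANT1), the form of heart and muscle, reached 322.3, 334.6 and 301.7 CPM in ko and 398.1, 388.4 and 501.4 CPM in wild type. Neither gene's groups overlapped, with Slc25a5 above and Slc25a4 below wild type. For Slc25a4, the means were 319.5 ± 16.6 CPM in ko and 429.3 ± 62.6 CPM in wild type (SD, n = 3 each), with a log2 fold change of -0.43 (SE 0.09, 95% interval -0.63 to -0.23, adjusted p = 0.0283 by edgeR). It was called in 3 other fits, namely by DESeq2 (adjusted p = 0.000933), without the filter on low counts (0.00197) and without p56 (0.00362, log2 -0.30). For Slc25a5 the log2 fold change was 0.09 (95% interval -0.03 to 0.21, adjusted p = 0.507). Slc25a4 relative to Slc25a5, both per kb, came to 0.349, 0.344 and 0.315 in ko and to 0.446, 0.444 and 0.549 in wild type. Reads that mapped to several places were not counted, and levels of these genes, which have closely related copies, are uncertain to that degree.

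Slc25a3, which supplies phosphate for ATP synthesis, had 65.2 CPM per kb and a log2 fold change of 0.04 (adjusted p = 0.865 by edgeR). Slc25a51, the carrier of NAD into mitochondria, reached 30.8, 29.8 and 32.5 CPM in ko and 25.3, 27.4 and 25.3 CPM in wild type, without overlap but with an adjusted p of 0.184. Slc25a12, an aspartate and glutamate carrier that was singled out after its values were seen, had 82.8, 95.4 and 91.4 CPM in ko and 70.2, 71.0 and 100.1 CPM in wild type. Here p56 was above all other libraries, and the log2 fold change of 0.16 (adjusted p = 0.626) became 0.35 (adjusted p = 0.00362) without it. The 95% interval stayed within 1.5-fold for 27 of the 33 carriers. Among 16 other genes of mitochondria, 0 were called by edgeR, DESeq2 or limma-voom, 1 was higher and 1 lower at an unadjusted p under 0.05, and the median log2 fold change was 0.000973.

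**Figure D4:**
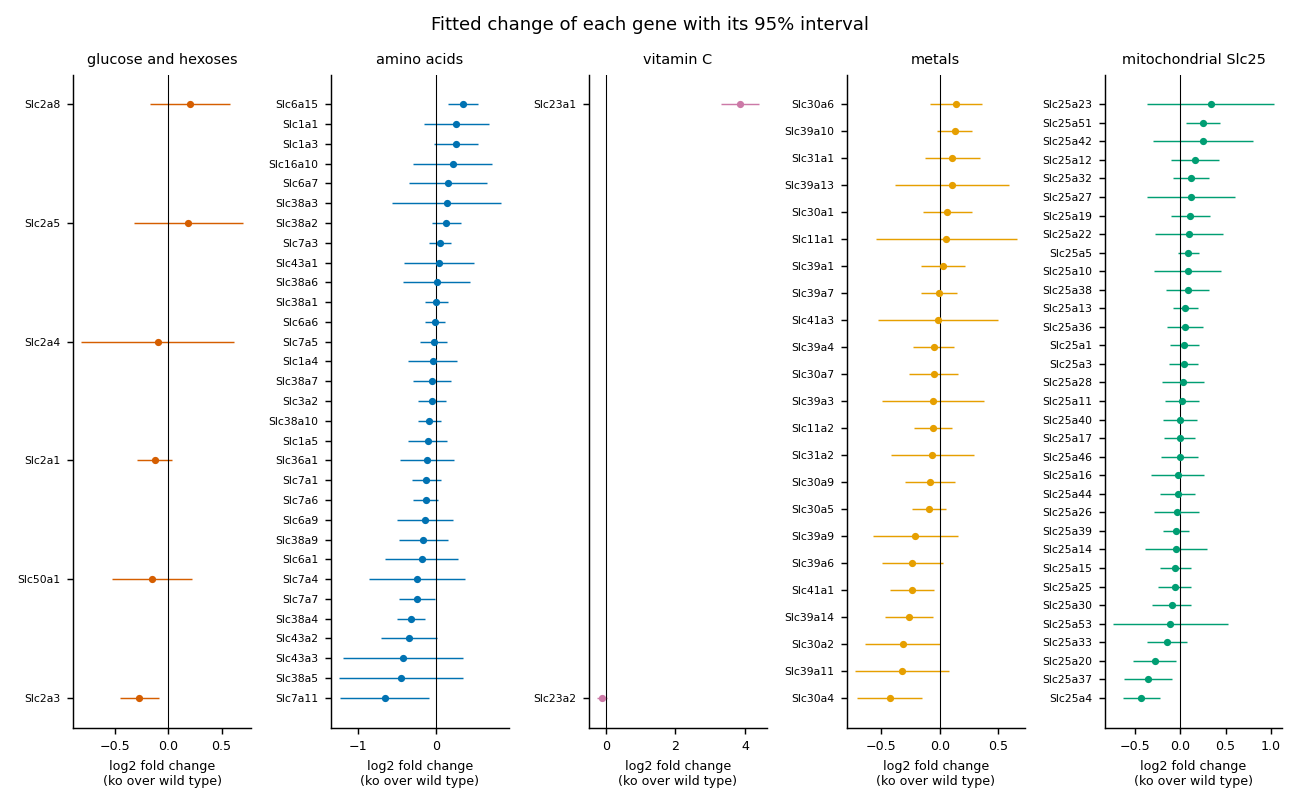
Log2 fold change of ko over wild type (horizontal axis, which differs between panels) with its 95% interval for every gene of the glucose, amino acid, vitamin C, metal and mitochondrial groups. Most intervals include 0, and those that do not include Slc23a1 (3.31 to 4.39) and Slc25a4 (-0.63 to -0.23).

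Outside these groups, Slc28a1 (CNT1), a concentrative transporter of pyrimidine nucleosides, came closest to the threshold. It reached 25.32, 24.01 and 22.87 CPM in ko and 16.95, 17.43 and 14.05 CPM in wild type, and all ko values were above all wild-type values. The means of 24.07 ± 1.23 CPM and 16.1 ± 1.83 CPM (SD, n = 3 each) gave a log2 fold change of 0.57 (SE 0.11, 95% interval 0.34 to 0.81, adjusted p = 0.0145 by edgeR). It was called by DESeq2 (adjusted p = 0.00316), without the filter (0.00383) and without p56 (0.00426). Slc44a1, a choline transporter, was next among the genes higher in ko, with 86.6, 83.3 and 86.7 CPM in ko and 64.7, 60.0 and 77.6 CPM in wild type (log2 0.34, SE 0.09, adjusted p = 0.0732). Its p56 value lay between p42 and the ko clones, and without p56 the adjusted p was 0.000136 and the log2 fold change 0.46. Slc47a1 (MATE1), an exporter of organic cations, had 4.62, 5.47 and 4.63 CPM in ko and 6.66, 7.07 and 9.96 CPM in wild type (log2 -0.68, SE 0.19, adjusted p = 0.0908).

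Of the 25 ion transporters, 1 was higher and 3 were lower at an unadjusted p under 0.05 (background 6.42% and 7.86%), and 0 were called by edgeR, DESeq2 or limma-voom. Slc4a7, a sodium bicarbonate carrier, had 92.5, 67.3 and 78.1 CPM in ko and 94.4, 96.1 and 115.1 CPM in wild type (log2 -0.36, SE 0.11, adjusted p = 0.141). This gene lies on chromosome 14, and without p56 its log2 fold change was -0.26 (adjusted p = 0.0939 by edgeR). Slc20a1, a phosphate importer, and Slc12a4 (KCC1), which exports potassium and chloride, were singled out after their values were seen. Slc20a1 reached 375.0, 412.2 and 410.9 CPM in ko and 340.4, 351.1 and 359.1 CPM in wild type, without overlap (log2 0.19, adjusted p = 0.154). Slc12a4 had 52.9, 51.4 and 50.8 CPM in ko and 62.7, 68.4 and 54.98 CPM in wild type, also without overlap. Its log2 fold change was -0.26 (adjusted p = 0.166) with all libraries and -0.34 (adjusted p = 0.00470) without p56.

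**Figure D5:**
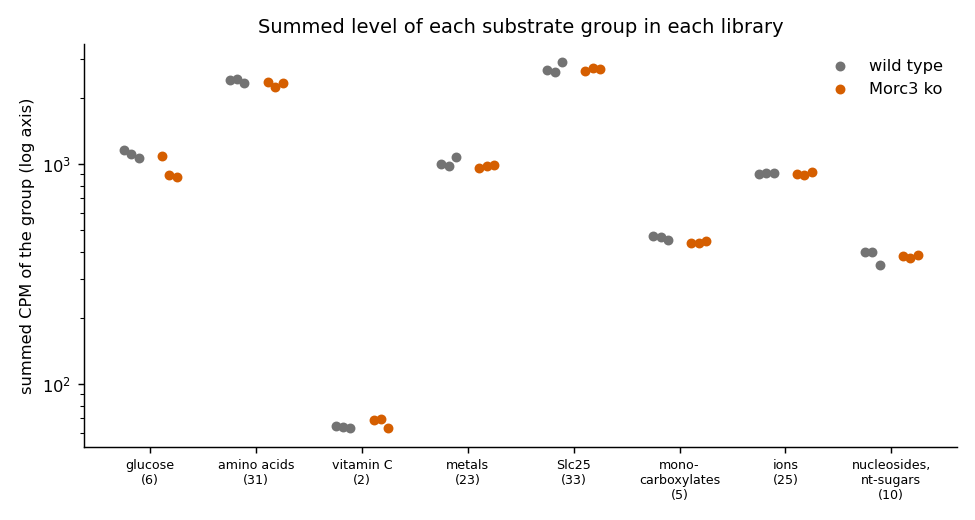
Summed CPM of 8 substrate groups (vertical log axis) with 1 point for each of the 6 libraries and the number of genes below each group. The monocarboxylate transporters do not overlap between ko (437.5 to 446.0 CPM) and wild type (450.5 to 473.8 CPM), and the amino acid transporters do.

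Several of these values depended on the library p56. Its median distance from the other wild-type libraries over the 172 genes was 0.192 in log2, against 0.108 for p42 and 0.131 for p43. Over all genes tested p56 was also the farthest, with 0.158. Among the ko libraries clone 1 was the farthest over the 172 genes, with 0.165 against 0.118 for clone 2 and 0.126 for clone 3. Without clone 1, log2 fold changes were -0.38 for Slc2a3 (adjusted p = 0.0118 by edgeR) and -0.27 for Slc1a5 (adjusted p = 0.108). Without p56, 6 SLC genes were called in place of 1. Slc23a1, Slc44a1, Slc25a12 and Slc28a1 were then higher and Slc25a4 and Slc12a4 lower in ko, against a background of 3.13% of 12315 genes. DESeq2 called 3 of the 172 (1.8% of all genes), and edgeR without a filter called 4 (1.63%). Chromosome 14 was looked at separately because earlier results of these data had shown it to differ in p56. It carries 7 of the 172 genes, and p56 was the highest wild-type library for 6 of them. Given that choice, these values are not an independent observation. All 7 had log2 fold changes below 0, with a median of -0.266, which was -0.163 without p56. The other 165 genes had a median of -0.0325, with 70 above and 95 below 0. For Slc15a1, a peptide transporter, the value turned from -0.21 to 0.21 without p56 (adjusted p = 0.529 by edgeR). Of the 7 genes, 0 were called by edgeR with or without p56 or by DESeq2. With all libraries, 5 of the 7 were lower at an unadjusted p under 0.05 (background 7.86%).

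Counts on the opposite strand were few, with a median of 0.221% of the sense counts over the 172 genes, and exceeded 10% for 8 of them. Of 9 SLC genes tested on that strand, 0 were called by edgeR and 0 had an unadjusted p under 0.05, against 0.508% called of 1378 genes.

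To relate expression to promoter sequence, CpG dinucleotides were counted in windows from 250 bases before to 50 bases after a transcript start, 1 per gene (RefSeq, GRCm38.p6). A window was found for 126 of the 172 genes, at the outermost start of the gene for 53 and farther inside the gene for 73. Their median was 20 CpG, compared with 21 for all genes tested and 7 for all 27025 windows. Fewer than 10 CpG were counted in 18 windows (14.3%), the same share as among genes tested, while 56.1% of all windows held fewer than 10. The 18 genes with few CpG had a median level of 2.01 CPM per kb and the other 108 one of 3.70 CPM per kb. Their median log2 fold changes were -0.0314 and -0.0554. The windows of Slc28a1 and Slc25a4, the genes closest to the threshold in either direction, are shown because they lie on either side of the median, with 4 and 25 CpG, which are in capitals. Slc28a1 has its window at chr7:81114549-81114848 on the plus strand and Slc25a4 at chr8:46211013-46211312 on the minus strand, both given 5′ to 3′. The transcript start used for Slc28a1 lies 1530 bases inside the outermost start of the gene, and that of Slc25a4 is the outermost.
Slc28a1: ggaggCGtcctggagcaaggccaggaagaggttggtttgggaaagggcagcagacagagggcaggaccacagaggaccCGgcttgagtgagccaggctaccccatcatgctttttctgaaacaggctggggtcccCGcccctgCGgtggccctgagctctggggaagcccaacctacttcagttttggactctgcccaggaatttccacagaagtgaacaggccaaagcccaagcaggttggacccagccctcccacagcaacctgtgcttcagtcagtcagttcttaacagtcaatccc
Slc25a4: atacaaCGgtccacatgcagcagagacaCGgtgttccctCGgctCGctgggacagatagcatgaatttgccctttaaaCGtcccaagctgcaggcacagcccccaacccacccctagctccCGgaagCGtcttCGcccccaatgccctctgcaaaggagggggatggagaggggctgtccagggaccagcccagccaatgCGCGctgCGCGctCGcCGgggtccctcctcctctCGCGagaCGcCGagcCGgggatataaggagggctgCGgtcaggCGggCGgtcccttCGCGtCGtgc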

How the data were processed

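RNA was depleted of ribosomal RNA, prepared as strand-specific libraries and sequenced from both ends at 50 bp. Alignment to mm10 was done with STAR by the authors, who deposited raw counts per gene for each library, ignoring strand and for each strand. Which annotation they counted on is not given in the sources used here. Counts of the strand with the larger total were used as sense counts. Lines of unassigned reads stayed out of library sizes and tests. Authors used DESeq2 at an adjusted p under 0.01, and this threshold was kept.

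Here, edgeR 4.0.16 (R 4.3.3) was run on all genes with TMM normalization, its default filter (minimum count 10, minimum total 15) and its quasi-likelihood test, two-sided, with Benjamini-Hochberg adjustment over 12222 genes. The SE is the log2 fold change divided by the square root of F. CPM were computed from TMM-scaled library sizes. DESeq2 1.42.0, limma-voom 3.58.1, other normalizations and filters, counts that ignore strand and leaving out each library were alternatives. Positions came from RefSeq for GRCm38.p6 and exon lengths from GENCODE of that assembly. All 172 genes were matched by symbol. The script was tested on simulated data.

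The SLC genes and gene lists were chosen with earlier results of these data known. Named were genes called, the 3 with the highest level per kb and the 2 uncalled with the smallest p in the glucose, amino acid, vitamin C, metal and Slc25 groups, 15 genes of known role, and the 5 others with the smallest p.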

Additional observations from a re-analysis of the deposited data

How the results depend on the processing

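Slc23a1 was called in the main analysis and under all 14 alternatives, with log2 fold changes from 2.64 to 3.97 and adjusted p-values of at most 0.000127. The count of called SLC genes was 1 (1 higher, 0 lower) with RLE size factors, library sizes alone, limma-voom, a robust fit, a CPM filter and counts that ignore strand. It was 3 (2 higher, 1 lower) with DESeq2 and 4 (2 higher, 2 lower) without a filter or at an adjusted p under 0.05. Leaving out single libraries gave 1 to 6, with 1 to 4 higher and 0 to 2 lower, and 6 were reached only without wild-type p56. The cause was not tested. Of 172 genes, 165 were not called under any setting. Some values close to 0 changed sign without a library: Slc16a3 (-0.036 to 0.26, below 0 without p56), Slc25a3 (-0.014 to 0.11, below 0 without clone 3), Slc30a1 (-0.0024 to 0.19, below 0 without p43), Slc39a7 (-0.058 to 0.026, with 0.019 without clone 1 or 3 and 0.026 without p43), Slc3a2 (-0.14 to 0.027, above 0 without p43), Slc50a1 (-0.24 to 0.011, above 0 without clone 3) and Slc7a5 (-0.092 to 0.024, with 0.024 without clone 2 and 0.013 without p43). With 3 libraries per group and low counts, as for Slc16a9 and Slc7a11, intervals are wide. No paired analysis was possible because ko clones are numbered 1 to 3 in the labels and wild-type libraries carry none of these numbers.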

Other observations

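Solute carrier genes outside the naming pattern, such as Slco and Slc35b members, were 42 rows, of which 23 were tested. Of these, 0 were called by edgeR and 1, Slc35g1, by DESeq2. At an unadjusted p under 0.05, 4 were higher and 0 lower (background 6.42% and 7.86%). Their median log2 fold change was 0.0718. Slc35g1, singled out after its values were seen, had 42.8, 50.6 and 51.2 CPM in ko and 30.3, 25.1 and 36.2 CPM in wild type (log2 0.66, SE 0.12, adjusted p = 0.0137 by edgeR and 9.1e-05 by DESeq2), without overlap. Of the SLC rows below the count minimum, 15 were tested and 0 called by edgeR or DESeq2, with 1 higher and 3 lower at an unadjusted p under 0.05. Among these, the zinc and manganese importer gene Slc39a8 had 17, 27 and 19 counts in ko clones 1, 2 and 3 and 9, 9 and 15 counts in wild-type p42, p43 and p56 (log2 1.23, SE 0.34, adjusted p = 0.0916). Slc37a2, a sugar phosphate exchanger, had 14, 6 and 5 counts in ko and 23, 23 and 24 counts in wild type (log2 -1.17, SE 0.38, adjusted p = 0.162). Both were singled out after their values were seen, and neither gene's groups overlapped.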
